A study of Mus musculus with 6 samples.

Results

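The complement system is a cascade of plasma and tissue proteins, and the genes described here encode 7 of its components and receptors in mouse pancreatic tumours with and without Msi1. The list held 9 genes: C1qa, C1qb and C1qc, the chains of C1q; C3 and C4b, the central components cleaved during activation; Cfb and Cfp, which encode factor B and properdin of the alternative pathway; and C3ar1 and C5ar1, the receptors of the released peptides. A gene was measured where a probe set of the array was annotated to its symbol alone, and it was represented by the probe set with the highest mean over the 6 arrays. This gave 7 of the 9 genes, with 13 probe sets, among 18194 genes in all. C3 had no probe set listed under its symbol and is not analysed here. C4b had a probe set that also carried the symbol C4a, and it is likewise not analysed here.

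The samples were pancreatic tumour cells of C57BL/6 mice aged 11 weeks, with 3 samples of the genotype Msi1 -/-, called Msi1 KO here, and 3 labelled wt for Msi1. Its protein, Musashi 1, binds RNA in stem and progenitor cells. The labels give all 6 samples the same tumour alleles, spelled KeasG12D/+;p53f/f;ptf1a-Cre, so the wt samples are tumours too. The ptf1a-Cre driver acts in the pancreatic epithelial lineage, and the labels do not say in which cells Msi1 was lost and do not state that the samples came from separate animals. All p-values here thus refer to the variation among these 6 samples, which may be technical in part. The comparison asks which transcripts differ between tumours without and with Msi1, and RNA of each sample was hybridised to 1 Affymetrix mouse array.

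Complement works through 3 routes that meet at C3. In the classical route C1q binds antibody or altered cell surfaces and activates the proteases C1r and C1s. In the lectin route sugar-binding proteins activate MASP proteases, and the alternative route amplifies deposited C3 through factor B, with properdin holding the enzyme together. The peptides C3a and C5a released on the way signal through their receptors on myeloid cells. Most plasma complement comes from the liver, but C1q is made mainly by tissue macrophages, and in solid tumours macrophages are known as its chief source. The transcription factor PU.1 is a main regulator of macrophage genes.

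The genes of the C1q chains lie beside each other on mouse chromosome 4, and their transcripts varied together from array to array, as did those of the receptors. The 250 bases before the start given in the RefSeq promoter table (GRCm38.p6) are shown for C1qb and C1qc, the C1q genes with an entry. They are written 5′ to 3′ on the gene's own strand. Capitals mark GAGGAA, a core bound by PU.1, on either strand, so that TTCCTC is the same motif read from the other strand. The windows of C3, C3ar1, C5ar1 and Cfp were searched too, did not hold the motif and are not printed.
C1qb, chr4:136886201-136886450, minus strand: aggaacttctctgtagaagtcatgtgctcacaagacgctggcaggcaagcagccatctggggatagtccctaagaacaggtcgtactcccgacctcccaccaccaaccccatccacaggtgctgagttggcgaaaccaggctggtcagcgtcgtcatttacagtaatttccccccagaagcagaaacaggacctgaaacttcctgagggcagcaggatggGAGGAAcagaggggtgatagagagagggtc
C1qc, chr4:136892915-136893164, minus strand: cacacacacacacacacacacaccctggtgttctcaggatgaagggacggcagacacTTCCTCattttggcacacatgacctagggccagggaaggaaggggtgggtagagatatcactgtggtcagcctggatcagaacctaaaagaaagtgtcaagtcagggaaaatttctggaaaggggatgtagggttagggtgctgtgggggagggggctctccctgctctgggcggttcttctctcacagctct

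The motif was sought in the windows of 6 of the 9 listed genes that had an entry and was found in 2 of them. The C1qb window held GAGGAA once, 30 bases before the start. The C1qc window held the motif once, on the other strand, 193 bases before the start. The windows of C3, C3ar1, C5ar1 and Cfp did not hold these letters. Of 32851 mouse promoter windows of the same length, 23.3% held it on either strand. The matches describe the letters of these windows, and a link between them and the shared array profiles was not tested.

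Facts of the whole series set the frame. Median intensity lay between 159.2 and 164.3 in the 6 arrays, and the number of arrays limits the precision. Msi1 itself does not check the labels, because its brightest of 3 probe sets was dim, at 127 to 168 in Msi1 KO arrays and 144 to 257 in wt arrays, and its position relative to the deleted part is not known here. The array background, taken as the 95th percentile of 79 olfactory and related receptor probe sets, lay between 163 and 192. KO replicate 1 had the highest value of the 6 arrays for 25.4% of the 18194 genes, and this share was not counted for the other arrays. Xist, the X-inactivation transcript of females, was read at 131 to 186 in Msi1 KO arrays. In wt replicates 1, 2 and 3 it was read at 376, 387 and 6226. Eif2s3y, a gene of the Y chromosome, read 88.2 in wt replicate 3 and 716 to 944 in the other arrays. Only wt replicate 3 thus had a female pattern, and it did not come from the same animal as wt replicates 1 and 2.

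The label names tumour cells, and 8 of 8 epithelial markers were above background in every array, led by the keratin genes Krt8 and Krt18 and by Epcam. The preparations also held other cells. Of the macrophage markers 13 of 14 were above background in every array, led by Lyz2, Csf1r and Mrc1, as were 10 of 10 fibroblast markers, led by Col1a2, Col3a1 and Dcn. Of 7 hepatocyte markers 4 were below background in all arrays, among them Alb, the albumin gene of the liver. In such bulk RNA, fewer cells of a type and less RNA per cell cannot be told apart.

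None of the 7 complement genes passed the threshold between the genotypes. All 7 had a higher mean log2 value in Msi1 KO than in wt arrays, by 0.04 to 0.34 with a median of 0.09, against a median of 0.002 and 51.4% higher over all 45037 probe sets. The adjusted p of each of the 7 was 0.9997 (limma, Benjamini-Hochberg). At an adjusted p under 0.05 limma called 0 of the 45037 probe sets (0%), and at an unadjusted p under 0.05 it called 1355 (3.01%) and 0 of the 7 genes. The groups did not overlap for 1 of the 7, Cfb, with every Msi1 KO array above every wt array, as at 4.08% of all probe sets in that direction and 7.79% in either direction.

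**Figure D1:**
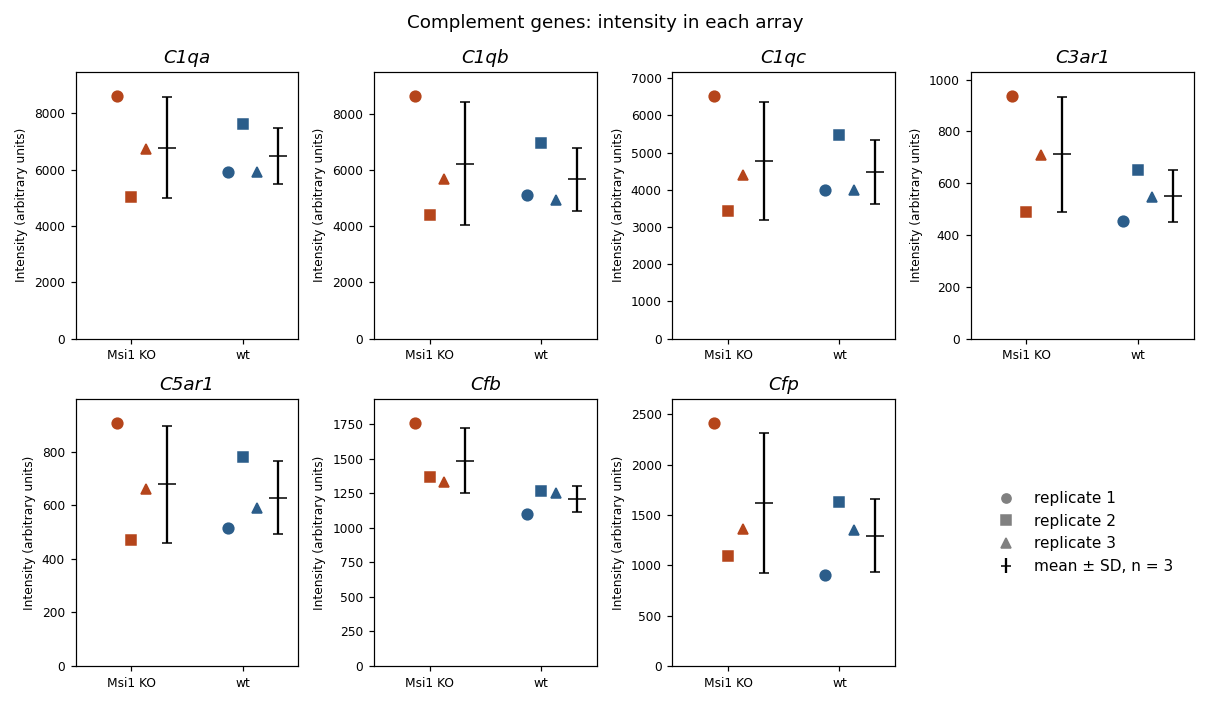
Each panel plots the deposited intensity of 1 complement gene, with 1 point per array, Msi1 KO on the left and wt on the right, and the mean ± SD (n = 3) beside the points. KO replicate 1 is the highest array in all 7 panels, and only in the Cfb panel do the groups not overlap.

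C1q came first in the cascade and gave bright signals. C1qa, which encodes the A chain, had intensities of 8608, 5010 and 6732 in Msi1 KO replicates 1, 2 and 3, against 5896, 7612 and 5923 in wt replicates 1, 2 and 3. The highest and the lowest array were both Msi1 KO, and the wt arrays lay between them. Its mean was 6783 ± 1799 in Msi1 KO and 6477 ± 983 in wt arrays (SD, n = 3). The log2 difference was 0.04 ± 0.20 (SE), with a 95% interval from -0.42 to 0.51, which is 0.747 to 1.42 as a ratio of Msi1 KO to wt (exact two-sided permutation p = 1).

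C1qb, which encodes the B chain, read 8638, 4390 and 5672 in Msi1 KO arrays, against 5109, 6978 and 4953 in wt arrays. C1qc, for the C chain, read 6519, 3426 and 4398 in Msi1 KO arrays, against 3999, 5468 and 3982 in wt arrays. Both genes had KO replicate 1 highest, wt replicate 2 next and KO replicate 2 lowest, the order that C1qa had at these places, and the groups overlapped. The log2 differences were 0.09 ± 0.25 for C1qb and 0.06 ± 0.24 for C1qc (SE), with 95% intervals from -0.48 to 0.67 and from -0.50 to 0.61. The other 2 probe sets of C1qb gave 0.16 ± 0.23 and 0.14 ± 0.18 (SE).

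The 3 chains were hard to tell apart by their profiles. After each gene's log2 values were centred on their mean over the 6 arrays, C1qb and C1qc differed by a root mean square of 0.03, and C1qa differed by 0.07 from C1qc and by 0.09 from C1qb. The C5a receptor gene C5ar1 was as near to them, at 0.07 to 0.09, while Cfb and Cfp lay farthest from each other, at 0.29. These distances describe 6 shared arrays.

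The peptide receptors were measured at lower intensities. C3ar1, the receptor of C3a on macrophages and other myeloid cells, read 936, 490 and 707 in Msi1 KO arrays, against 453, 651 and 548 in wt arrays. KO replicate 1 and KO replicate 3 were above all wt arrays, while KO replicate 2 lay between wt replicates 1 and 3. Its mean was 711 ± 223 in Msi1 KO and 550 ± 99.0 in wt arrays (SD, n = 3). The log2 difference, the largest of the 7 genes, was 0.34 ± 0.24 (SE), with a 95% interval from -0.24 to 0.91 (exact two-sided permutation p = 0.4). Its other 2 probe sets gave 0.15 ± 0.20 and 0.27 ± 0.26 (SE).

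C5ar1, the receptor of C5a on neutrophils and macrophages, read 906, 469 and 660 in Msi1 KO arrays, against 516, 781 and 588 in wt arrays. The wt arrays again lay between the highest and the lowest Msi1 KO array. The log2 difference was 0.08 ± 0.26 (SE), with a 95% interval from -0.52 to 0.68. A second probe set, above background in 1 of 6 arrays, gave 0.16 ± 0.12 (SE).

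The alternative pathway gave the narrowest and the widest spread among the 7 genes. Cfb, which encodes the protease factor B, read 1757, 1372 and 1331 in Msi1 KO arrays, against 1104, 1269 and 1256 in wt arrays. Every Msi1 KO array was above every wt array, with the lowest Msi1 KO array 61 units above the highest wt array. Its mean was 1487 ± 235 in Msi1 KO and 1210 ± 92.1 in wt arrays (SD, n = 3). The log2 difference was 0.29 ± 0.14 (SE), with a 95% interval from -0.04 to 0.61 that includes 0 (unadjusted p = 0.0746, limma). The exact permutation test, two-sided, gave p = 0.1, below which 3 arrays against 3 cannot go. Cfb lies on chromosome 17 next to C2, a related protease gene, whose values were 760, 574 and 453 in Msi1 KO arrays, against 1138, 612 and 587 in wt arrays, a log2 difference of -0.35 ± 0.29 (SE).

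Cfp, which encodes properdin and is made by myeloid cells, read 2411, 1094 and 1356 in Msi1 KO arrays, against 902, 1625 and 1352 in wt arrays. It spanned 2.67-fold between KO replicate 1 and wt replicate 1, and the groups overlapped. The log2 difference was 0.28 ± 0.32 (SE), with a 95% interval from -0.47 to 1.04. Its second, dimmer probe set had the opposite sign, -0.14 ± 0.18 (SE), with KO replicate 1 lowest. The gene lies on the X chromosome, and without wt replicate 3, the array with the female pattern, the log2 difference was 0.34.

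The span of the Msi1 KO arrays was larger than the difference between genotypes for all 7 genes. KO replicate 1 had the highest value for 7 of the 7, and the lowest was KO replicate 2 for 4 genes (C1qa, C1qb, C1qc and C5ar1) and wt replicate 1 for 3 (C3ar1, Cfb and Cfp). Within the Msi1 KO arrays C1qb spanned 0.98 on the log2 scale, against 0.49 within the wt arrays and a difference of 0.09 between the groups. For Cfb the spans were 0.40 in Msi1 KO and 0.20 in wt arrays, against a difference of 0.29.

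Most of these differences changed sign when 1 array was left out, and for some genes more than 1 array did this. Without KO replicate 1 the log2 difference was -0.15 for C1qa, -0.17 for C1qb, -0.19 for C1qc, -0.15 for C5ar1 and -0.04 for Cfp. C3ar1 and Cfb kept a positive sign without any 1 array, from 0.11 to 0.58 and from 0.16 to 0.36, with the lowest value without KO replicate 1 in both. Without KO replicate 2 the 3 chains of C1q gave 0.24, 0.32 and 0.27, C5ar1 0.32 and Cfp 0.52. Leaving out wt replicate 2 gave 0.16, 0.25 and 0.21 for C1qa, C1qb and C1qc, 0.25 for C5ar1 and 0.47 for Cfp. Without wt replicate 1 the same genes gave -0.02, 0.03, -0.02, -0.05 and 0.04, and C3ar1 0.20. Without wt replicate 3 the values were -0.02, 0.01 and -0.02 for the C1q chains and 0.04 for C5ar1.

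**Figure D2:**
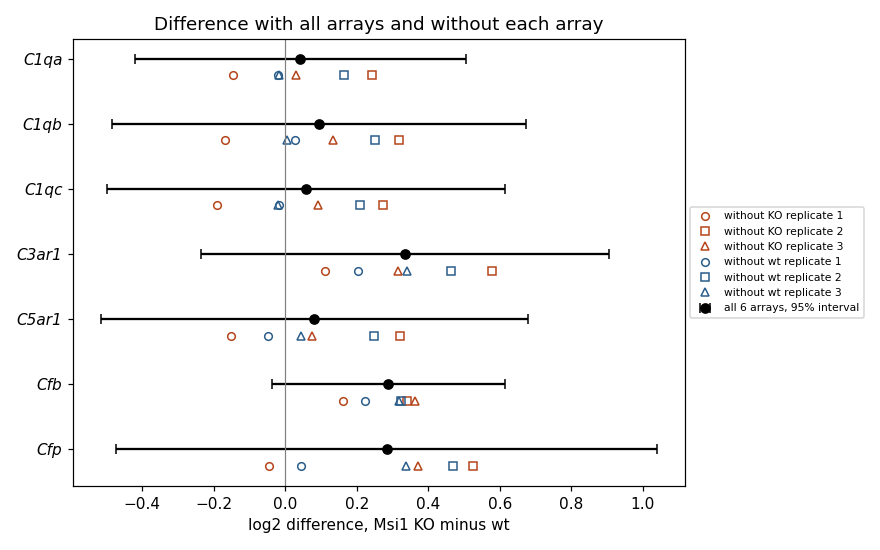
Black points are the log2 differences, Msi1 KO minus wt, of the 7 complement genes with all 6 arrays, and bars are 95% intervals. Open symbols below them are the differences without 1 array, and those without KO replicate 1 lie lowest for every gene, on the negative side for C1qa, C1qb, C1qc, C5ar1 and Cfp.

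Markers of other cell types varied between the same arrays. The mean centred log2 value of 14 macrophage markers was 0.39, -0.30 and 0.08 in Msi1 KO replicates 1, 2 and 3, against -0.25, 0.16 and -0.08 in wt replicates 1, 2 and 3. For the C1q chains it was 0.50, -0.39 and -0.01 in Msi1 KO arrays, against -0.17, 0.25 and -0.18 in wt arrays. Both were highest in KO replicate 1, second in wt replicate 2 and lowest in KO replicate 2, and the fibroblast markers had the same order. Single macrophage markers differed: 9 of the 14 were highest in KO replicate 1 and 8 lowest in KO replicate 2. The summed intensity of the macrophage markers ranged from 25622 to 41775 in Msi1 KO arrays, against 29034 to 34519 in wt arrays, and Siglec1, a macrophage lectin, was below background in all 6 arrays. Of the 14 markers 9 had higher and 5 lower means in Msi1 KO arrays, with a median log2 difference of 0.05 and 0 calls.

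Fibroblast and endothelial markers were also highest in KO replicate 1. The fibroblast score was 0.40, -0.29 and -0.03 in Msi1 KO arrays, against -0.07, 0.06 and -0.07 in wt arrays, and the summed intensity ran from 44191 to 67000 in Msi1 KO and from 50845 to 56213 in wt arrays. The endothelial score was 0.40, -0.11 and 0.15 in Msi1 KO arrays, against -0.36, 0.04 and -0.13 in wt arrays, and the summed intensity ran from 4434 to 6618 in Msi1 KO and from 3846 to 5104 in wt arrays. Epithelial markers ran the other way in KO replicate 1, at -0.30, with sums of 46334 to 65985 in Msi1 KO and 49604 to 56636 in wt arrays. Of 8 neutrophil markers 4 were highest in KO replicate 1, S100a8 and S100a9 among them. The neutrophil score was highest in KO replicate 2, at 0.31, but this rested on 1 gene, Ltf, the lactoferrin gene. Ltf read 9504 there, against 1301 and 1082 in the other Msi1 KO arrays and 1035 to 1506 in wt arrays. S100a8 and S100a9 read 2387 and 1855 in KO replicate 2, against 3777 and 2925 in KO replicate 1. The part of these cell types in the complement values was not tested.

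Acinar markers, the digestive enzymes led by Ctrb1, Cela3b and Prss2, had lower means in Msi1 KO arrays for 9 of 9, with summed intensities of 13633 to 39277 in Msi1 KO and 40691 to 63911 in wt arrays. Higher means in Msi1 KO arrays were found for 6 of 7 dendritic cell, 7 of 7 T and NK cell and 6 of 6 endothelial markers. The same held for 5 of 8 neutrophil, 1 of 6 adipocyte, 2 of 7 hepatocyte and 2 of 5 mast cell markers. Of the dendritic cell markers 1, and of the T and NK cell markers 2, were above background in every array. In both of these lists wt replicate 1 was the lowest array for 6 of 7. Above background in every array were 2 hepatocyte markers and 1 mast cell marker. RNA quality was read from the Gapdh controls, as 3′ signal over 5′ signal, and this ratio was 1.38, 1.60 and 1.61 in Msi1 KO arrays, against 1.55, 1.86 and 1.67 in wt arrays. It was lowest in KO replicate 1, where the 7 complement genes were highest, and its part in their values was not tested.

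**Figure D3:**
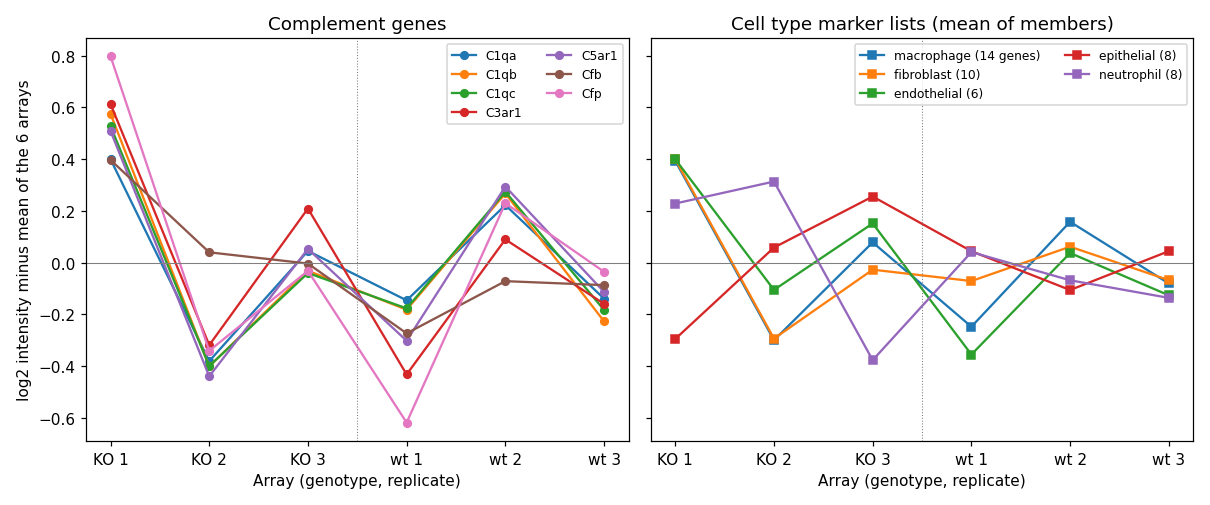
The left panel plots the log2 intensity of each complement gene minus its mean over the 6 arrays, and the right panel the mean of such values over the members of 5 cell type marker lists, with Msi1 KO arrays left of wt arrays. The C1q chains and the macrophage and fibroblast lists are highest in KO replicate 1 and lowest in KO replicate 2.

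Genes with the nearest profiles were sought for the members whose log2 values spanned at least 1 over the arrays, which were C3ar1 and Cfp. Among all genes, the 5 nearest to C3ar1 were Olfml2b, Fap, Mrc2, Stard8 and Ccn4, with a root mean square difference of 0.05 to 0.07 on the centred log2 scale over 6 arrays. For Cfp they were Nckap1l, Klrb1b, Pld4, Col8a1 and Rgs5, at 0.10 to 0.11. Olfml2b read 1525, 791 and 1052 in Msi1 KO arrays, against 703, 1004 and 830 in wt arrays. Nckap1l read 1741, 947 and 1176 in Msi1 KO arrays, against 727, 1244 and 1025 in wt arrays. Both repeat the order in which KO replicate 1 was highest and wt replicate 1 lowest. This likeness follows from choosing them by nearness over these same arrays.

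The rest of the complement system was represented by 38 of 45 listed genes. None passed the threshold, 23 had higher and 15 lower means in Msi1 KO arrays, and the median log2 difference was 0.01. At an unadjusted p under 0.05 there were 3 of 38, against 3.01% of all probe sets. The groups did not overlap for 1 gene, C4bp, which encodes a binding protein of C4 and was below background in all arrays (log2 difference 0.19 ± 0.04, SE), against 7.79% of all probe sets without overlap. Of the 38 genes 18 were above background in every array, and 7 of these had higher and 11 lower means in Msi1 KO arrays.

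Among the genes that start the classical and lectin routes, 5 of 12 had higher and 7 lower means. The C1 protease genes C1ra and C1s1 differed by -0.02 ± 0.21 and 0.19 ± 0.19 (SE) on the log2 scale, and that of C1s1 ran from 0.03 without KO replicate 1 to 0.35 without wt replicate 1. Serping1, which encodes the C1 inhibitor, read 7996, 5781 and 5958 in Msi1 KO arrays, against 8389, 6431 and 5958 in wt arrays, a log2 difference of -0.07 ± 0.17 (SE). Replicate 1 was the brightest array of both genotypes for Serping1, C1ra and C1s1. Masp1, which encodes a protease of the lectin route, had the largest difference of the 38 at the brightest probe sets, with 692, 428 and 346 in Msi1 KO arrays, against 1600, 531 and 630 in wt arrays. Its log2 difference of -0.79 ± 0.43 (SE) rested on wt replicate 1 and was -0.31 without it (exact permutation test with all arrays, two-sided, p = 0.3). The other Masp1 probe sets above background gave -0.67 ± 0.40 and -0.22 ± 0.21 (SE). The genes of the mannose-binding lectins, Mbl1 and Mbl2, were below background in all arrays. For C2, which is cleaved in both routes, the log2 difference ran from -0.54 without KO replicate 1 to -0.04 without wt replicate 1.

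Soluble regulators gave 3 of 5 higher and 2 lower means. The 2 that were above background in every array, Cfi and Clu, were the lower ones, each by less than its SE. Clu differed by -0.008 ± 0.044 (SE) at a probe set that was the brightest of the whole array in several arrays. Its other probe sets gave 0.027, -0.010 and 0.045, so no direction can be read for Clu. Cfi, which encodes the protease that inactivates C3b and C4b, read 1248, 4230 and 1373 in Msi1 KO arrays, against 2084, 2263 and 1616 in wt arrays. KO replicate 2 alone lay above the wt arrays, and the log2 difference was -0.02 ± 0.44 (SE), and -0.59 without that array. This array was the lowest of the 6 for C1q.

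Of the membrane regulators, which protect cells from complement, 6 of 7 had higher means and 1 a lower one. In every array 2 of the 7 were above background, Cr1l with a higher and Cd59a with a lower mean. The gene with the lower mean was Cd59a, whose protein blocks the membrane attack complex, with 1010, 557 and 718 in Msi1 KO arrays, against 1170, 865 and 1146 in wt arrays. KO replicate 1 lay between the wt arrays, and the log2 difference was -0.51 ± 0.23 (SE; unadjusted p = 0.0601, limma). It was -0.30 without KO replicate 2. Cr1l, the rodent regulator Crry, differed by 0.01 ± 0.11 and Cd55, decay-accelerating factor, by 0.12 ± 0.15 (SE). Cr2, a complement receptor of B cells, read 161, 225 and 203 in Msi1 KO arrays, against 139, 158 and 164 in wt arrays, a log2 difference of 0.34 ± 0.13 (SE; unadjusted p = 0.0299, limma), and it was above background in 2 of 6 arrays. Markers of B cells stood beside it, with higher means in Msi1 KO arrays for 5 of 5. Their summed intensities were 1030 to 2593 in Msi1 KO and 839 to 1484 in wt arrays. Only 1 of the 5 was above background in every array, and wt replicate 1 was the lowest array for 5 of 5. The part of these markers in the Cr2 value was not tested.

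The genes of the terminal pathway, whose proteins form the membrane attack complex, were dim, and 4 of 6 were below background in every array. Hc, which encodes C5, the precursor of C5a, read 183 to 190 in Msi1 KO and 188 to 229 in wt arrays, a log2 difference of -0.13 ± 0.09 (SE), and -0.04 without wt replicate 1. C6 differed by 0.20 ± 0.12 (SE), by 0.09 without KO replicate 1 and by 0.32 without KO replicate 2. C8g, which was below background in every array, differed by 0.09 ± 0.05 (SE).

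The other receptors gave 4 of 8 higher and 4 lower means. Lrp1, an endocytic receptor of many ligands, read 1873, 1722 and 2137 in Msi1 KO arrays, against 2501, 2368 and 2122 in wt arrays, a log2 difference of -0.29 ± 0.12 (SE; unadjusted p = 0.0458, limma; adjusted p = 0.9997). Vsig4, the receptor of C3b on resident macrophages, was above background in 5 of 6 arrays and differed by -0.30 ± 0.23 (SE), with a range from -0.48 without KO replicate 3 to -0.05 without KO replicate 2. Cd93, a surface glycoprotein of endothelial and myeloid cells, differed by 0.03 ± 0.22 (SE).

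**Figure D4:**
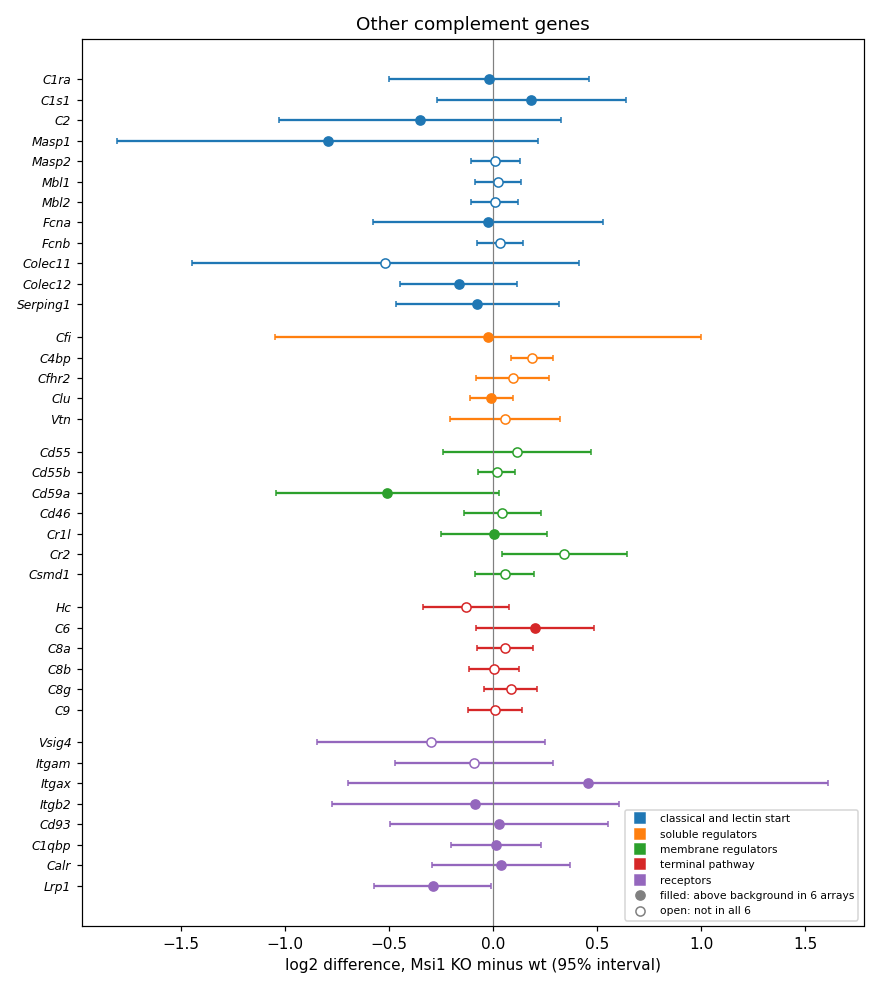
Points are log2 differences, Msi1 KO minus wt, of 38 other complement genes grouped by role, with 95% intervals as bars, filled where the gene was above background in all 6 arrays and open otherwise. Masp1 lies farthest to the left at -0.79, with an interval that includes 0, and the intervals of C4bp, Cr2 and Lrp1 lie to 1 side of 0 before adjustment.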

How the data were processed

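The authors deposited a table of intensity values for 45101 Affymetrix probe sets, made with GCRMA per the submitters' processing notes (version not given in the sources used here). The values are linear, and a later rescaling is not stated. Control probe sets (64) were left out. Symbols came from a platform annotation, updated by Entrez ID with RefSeq GRCm38.p6, which matched 34741 of 34945 probe sets with 1 symbol. Another 932 had several symbols and 9160 were not listed.

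Values were analysed as log2(intensity + 1). Adding 1 understates differences of dim transcripts only slightly, because no array had a value under 51.2. A pseudocount of 16 moved the log2 difference of C4bp from 0.19 to 0.16. Dim signals also lie near the array background, and their differences may be understated. Genotype was the only term of a linear model over all 45037 probe sets (limma 3.58.1, R 4.3.3, trend = TRUE), with Benjamini-Hochberg adjustment, a threshold of 0.05 and moderated SEs and intervals. The fit was tested on simulated data. Permutation tests of single genes were exact and two-sided, over the 20 possible assignments. A score is the mean log2 value of a list's genes minus their mean over the 6 arrays.

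The members and gene lists were chosen with earlier results of these data known. The named genes were the members, 14 listed regulators and receptors where measured, and 6 others of smallest p. Up to 3 brightest markers per list and 5 nearest profiles were named too. C4a, Mbl1, Mbl2, Clu, Siglec1, Alb, Xist, Eif2s3y and Ighm were named besides these after their values were seen. Cfd, C5ar2, C7 and Cd59b had no probe set of their own symbol listed and were not analysed here. Alternatives changed a filter, the pseudocount, normalization, the prior variance, array weights, the replicate block, the probe set and each array in turn.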

Additional observations from a re-analysis of the deposited data

How the results depend on the processing

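Neither the 7 complement genes nor the 17 other complement genes named passed the threshold under any of the 15 alternatives that included them. The count of probe sets called was 0 in every alternative except without KO replicate 1, where it was 1 (range 0 to 1 over the arrays left out). This was Ighm, an immunoglobulin gene (adjusted p = 0.0426, limma). The median log2 difference of the 7 genes ran from -0.15 to 0.32 when 1 array was left out. With array weights it was -0.093, with C1qa at -0.093, C1qb at -0.10, C1qc at -0.13, C5ar1 at -0.12, Cfp at -0.045, Cfi at 0.12 and Cd93 at -0.12, all with the sign turned. A pseudocount of 16, quantile normalization and median centring turned no sign. Filters at a mean log2 of 7 or 8 only drop probe sets and cannot change a log2 difference. The filter at 7 dropped C4bp and C8g, and the filter at 8 also dropped Cd55, Hc, Vsig4, Cr2 and C6. With probe sets averaged per gene Cfp was 0.07, Cd55 0.26, Masp1 -0.35 and Cd59a -0.42.

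Leaving out 1 array turned the sign of C1qa (-0.15 to 0.24), C1qb (-0.17 to 0.32), C1qc (-0.19 to 0.27), C5ar1 (-0.15 to 0.32) and Cfp (-0.045 to 0.52). It did the same for C1ra (-0.17 to 0.18), Cd55 (-0.019 to 0.29), Cd93 (-0.12 to 0.26), Cfi (-0.59 to 0.29), Cr1l (-0.047 to 0.058) and Serping1 (-0.22 to 0.072). The other 13 named genes kept their sign in every alternative that included them.

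The labels do not state that the replicate numbers pair the samples. Deviations of arrays with the same number correlated at 0.17, -0.09 and 0.28 over probe sets. For Msi1 KO and wt arrays with different numbers the correlations ran from -0.26 to 0.06. Whether the samples are paired is thus not settled. With the replicate number as a block 0 probe sets were called (2120 at an unadjusted p under 0.05, against 1355 without the block, limma). The median of the 7 genes stayed at 0.09, because a block balanced over the genotypes cannot change a log2 difference. Genes near background allow no statement on direction, which holds for 20 of the 38 other complement genes.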
